A study of Mus musculus with 42 samples.

Results

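The genes examined here encode the general machinery that shortens poly(A) tails, removes mRNA caps and builds P-bodies, and what was followed is their own mRNA. The 37 genes were taken by symbol from the count tables of both experiments. All 37 were found, 1 row each, among 18825 rows of experiment 1 and 19866 of experiment 2, and all passed the filter on low counts in both. RNA bound by epitope-tagged Tnrc6a in mouse embryonic stem cells was recovered on anti-HA beads (IP) and sequenced beside RNA of the lysate (input), in 42 libraries forming 14 groups of 3. All cells were 129S6/SvEvTac embryonic stem cells with the GFP_5xT71BS reporter, and the culture protocol lists a stable FLAG-Cas9::T2A::Blasticidin transfection for all of them. Untagged cells carried no HA tag and served as the bead control. Tagged cells carried HA-AVI-Tnrc6a. A further line was HA-AVI-Tnrc6a, Trim71-/- (titled Trim71KO), used in both experiments, and another was HA-AVI-Tnrc6a, Ago2-/- (titled Ago2KO), used in experiment 2. Whether a line was 1 clone is not given in the sources used here. The labels say only that cells were grown in triplicate, so p-values measure the spread between these samples, which may be technical.

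Tnrc6 (GW182) proteins are recruited by Argonaute proteins that carry microRNAs, and they in turn bring in deadenylases. The CCR4-NOT and PAN2-PAN3 complexes then trim the poly(A) tail, the decapping enzyme Dcp2 with its activators removes the cap, and the exonuclease Xrn1 degrades the body of the mRNA from its 5′ end. Many of these proteins gather in P-bodies. The libraries thus ask whether the mRNAs that encode the silencing machinery are themselves bound by Tnrc6a, and whether that binding differs in Trim71- and Ago2-mutant cells.

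Library totals ran from 12587257 to 23657840 counts in experiment 1 and from 16296447 to 21026552 in experiment 2. The lowest count of any of the 37 genes in any library was 65 in experiment 1 and 98 in experiment 2. In input RNA, Ago2 was lower in the Ago2KO line than in the tagged line by 1.12 on the log2 scale (edgeR adjusted p 2.52e-08). Trim71 RNA was not lower in the Trim71KO line: its log2 change was 0.23 in experiment 1 and 0.42 in experiment 2, so this level does not check that label, and the libraries are called Trim71KO-labelled below. All 8 embryonic stem cell markers were measured, with a summed level of 5844 to 8847 CPM (counts scaled by library size) over the libraries. Primitive endoderm markers were low and lower in the mutant-labelled inputs: their summed level was 53.45 to 67.6 CPM in tagged and 9.69 to 10.8 CPM in Trim71KO-labelled input of experiment 1, and 18.47 to 21.29, 5.898 to 7.522 and 8.239 to 9.978 CPM in tagged, Trim71KO-labelled and Ago2KO input of experiment 2. Of the fibroblast or feeder list 2 of 5 genes were measured, with a summed level of 22.65 to 24.54 CPM in tagged and 57.96 to 61.84 CPM in Trim71KO-labelled input of experiment 1 and 34.19 to 35.76 and 49.48 to 51.91 CPM in experiment 2. Of the trophoblast list 2 of 4 were measured, at a summed 16.86 to 17.54 CPM in tagged and 17.26 to 19.09 CPM in Trim71KO-labelled input of experiment 1, and 14.65 to 19.53, 22.21 to 27.24 and 14.37 to 15.48 CPM in tagged, Trim71KO-labelled and Ago2KO input of experiment 2.

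In tagged input, the 37 mRNAs covered a wide range of levels per gene length. On the scale of CPM per kilobase, the poly(A)-binding protein mRNA Pabpc1 was highest at 412 ± 32.4 (SD, n = 3) in experiment 1 and 411 ± 4.67 in experiment 2. Dcp1b, a cofactor of the decapping enzyme, was lowest at 1.14 ± 0.195 and 1.13 ± 0.0976. Its neighbour in experiment 1, Cnot6l at 1.36 ± 0.178, did not differ from it beyond the spread, while in experiment 2 Dcp1b stood clear of Tob2 at 2.63 ± 0.292. Below Pabpc1 came Lsm4 at 98.7 ± 18.0 and Pabpc4 at 85.2 ± 2.92 in experiment 1, within the spread of each other, and Pabpc4 at 91.4 ± 1.28 and Lsm4 at 76.8 ± 6.04 in experiment 2, apart by more than the spread. The TOB/BTG mRNAs were low to moderate in tagged input of experiment 1, from Tob2 at 2.37 ± 0.20 through Btg1 at 4.15 ± 0.724 and Btg2 at 9.60 ± 0.813 to Tob1 at 16.3 ± 2.90. By the CPM given below, Btg1, Btg2 and Tob1 stood higher in tagged input of experiment 2, a difference between experiments that was not tested. On the beads the order was different. In tagged IP, Tob1 stood at 356 ± 16.0 CPM per kilobase in experiment 1, above Pabpc1 at 315 ± 9.07, and in experiment 2 at 304 ± 56.4 against 345 ± 33.7, within the spread of each other.

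Tag-specific enrichment sets the log2 IP to input ratio of tagged cells against that of untagged cells, as a difference, and a gene is called at an edgeR adjusted p under 0.05 over all genes tested. In experiment 1, 31 of the 37 mRNAs were called, 17 higher and 14 lower. Of all 18772 genes tested 56.9% were called, 28.1% higher and 28.8% lower. In experiment 2, 20 were called, 15 higher and 5 lower. Of 19778 genes 27.7% were called, 18.9% higher and 8.77% lower. The median SE was 0.149 for the 37 and 0.214 over all genes in experiment 1, and 0.108 and 0.183 in experiment 2. The 37 had the smaller median SE in every comparison below as well, so shares called are not compared at equal precision. The median of the 37 changes was 0.27 in experiment 1 and 0.17 in experiment 2, and over all genes tested it was -0.10 and -0.03. The split depended on the scaling in experiment 2. Scaled by library size alone, 14 were called higher and 14 lower, and the median of all genes moved to -0.24 and that of the 37 to -0.03. The sign was the same in both experiments for 35 of the 37 mRNAs and for 80.9% of the 18553 genes tested in both. Called higher in both were 14, namely Tob1, Tob2, Btg1, Btg2, Cnot6, Cnot6l, Cnot7, Cnot4, Cnot9, Dcp2, Dcp1a, Dcp1b, Lsm14b and Lsm1. Called lower in both were 5, namely Cnot3, Cnot10, Pan2, Lsm5 and Pabpc1. Of all genes tested in both experiments 19.0% were called higher in both and 7.53% lower in both. The size was larger in experiment 1 for 34 of 37 and for 82.6% of all genes, a difference between experiments that was not tested.

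**Figure D1:**
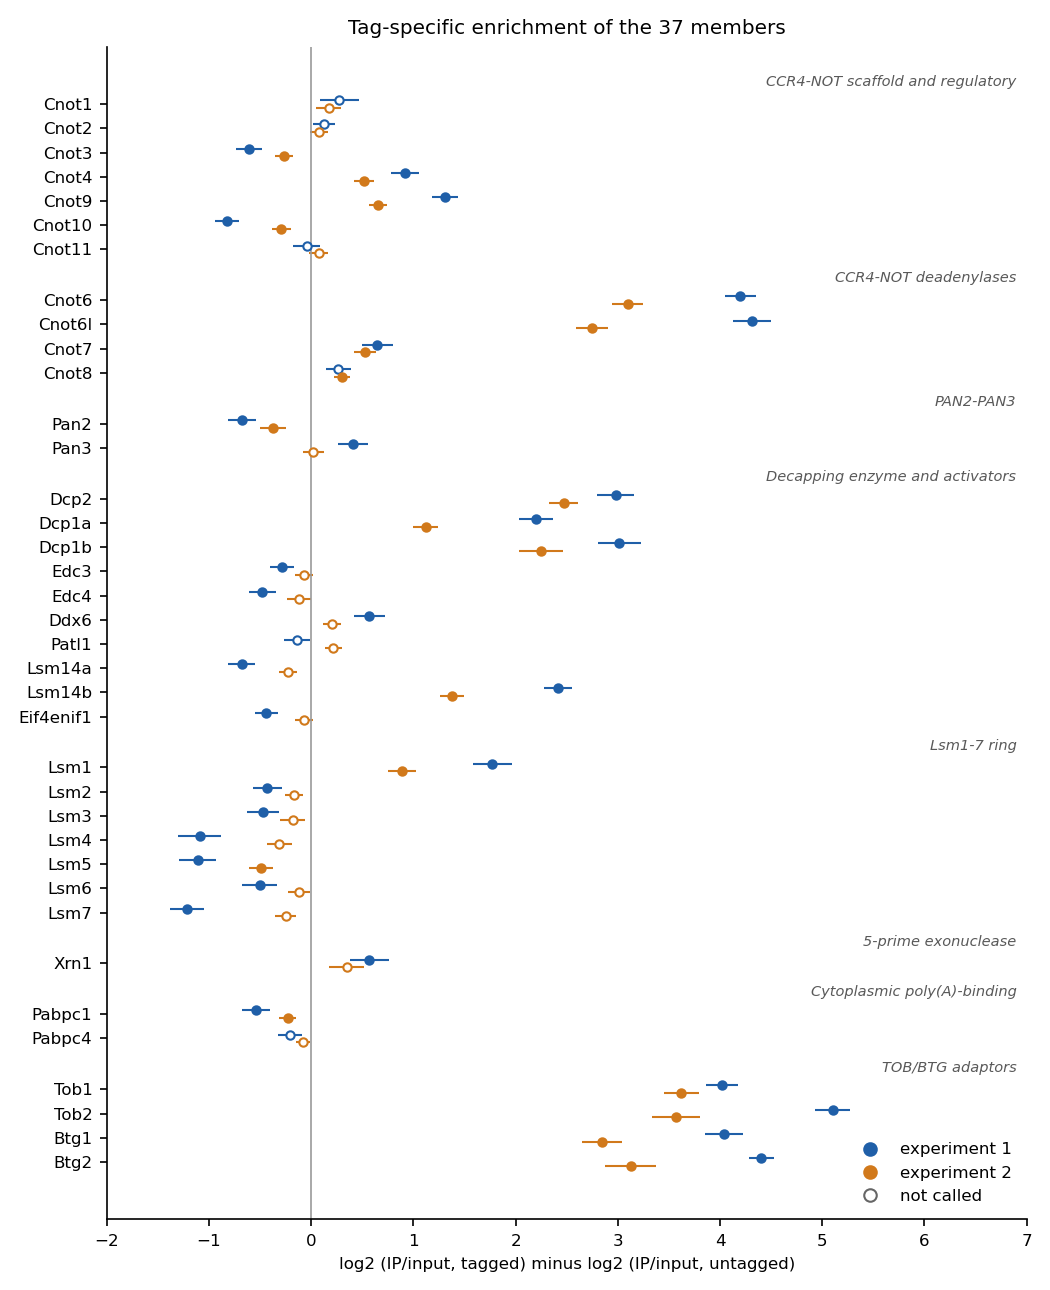
Tag-specific enrichment of the 37 mRNAs, grouped by the role of the encoded protein. The horizontal axis is the log2 IP to input ratio of tagged cells less that of untagged cells; points are edgeR estimates from 3 libraries a group, bars are 1 SE, and open points were not called. All 4 TOB/BTG mRNAs and the deadenylases Cnot6 and Cnot6l lie at 2.74 or above in both experiments, while 6 of the 7 Lsm ring mRNAs lie below 0.

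The 4 TOB/BTG mRNAs stood highest as a group. Tob1, Tob2, Btg1 and Btg2 encode antiproliferative adaptors that bind the CCR4-NOT deadenylases, and the TOB proteins also bind cytoplasmic poly(A)-binding protein. All 4 were called higher in both experiments, with a median log2 change of 4.22 in experiment 1 and 3.35 in experiment 2. Tob2 in experiment 1 measured 18.1, 20.7 and 16.8 CPM in the 3 untagged inputs, 13.8, 14.9 and 15.4 CPM in untagged IP, 16.7, 14.3 and 16.5 CPM in tagged input and 420.2, 377 and 495 CPM in tagged IP. The same groups of experiment 2 measured 15.9, 16.7 and 16.9 CPM in untagged input, 15.0, 17.1 and 16.1 CPM in untagged IP, 19.0, 15.3 and 18.1 CPM in tagged input and 254, 196 and 159 CPM in tagged IP. In both experiments each tagged IP library lay far above all other libraries of the comparison, the highest of which reached 20.7 CPM in experiment 1 and 19.0 CPM in experiment 2. The change was 5.10 (SE 0.17, edgeR adjusted p 3.57e-17) or 34.3-fold in experiment 1, and 3.57 (SE 0.23, edgeR adjusted p 2.21e-12) or 11.9-fold in experiment 2.

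Btg2, a p53-responsive member of the family, measured 24.0, 23.5 and 23.3 CPM in untagged input of experiment 1, 20.9, 22.6 and 21.1 in untagged IP, 27.4, 27.9 and 23.8 in tagged input and 518, 498 and 512 in tagged IP. In experiment 2 it measured 45.7, 48.3 and 53.0 CPM in untagged input, 49.5, 48.7 and 52.8 CPM in untagged IP, 50.8, 45.4 and 45.7 CPM in tagged input and 553, 402 and 317 CPM in tagged IP. Tagged IP did not overlap the other groups in either experiment, and in experiment 2 its 3 libraries were spread more widely. The change was 4.40 (SE 0.12, edgeR adjusted p 3.20e-18) and 3.12 (SE 0.25, edgeR adjusted p 9.51e-11). Tob1 measured 40.2, 36.4 and 39.4 CPM in untagged input, 55.6, 50.9 and 49.8 in untagged IP, 34.4, 44.9 and 32.6 in tagged input and 823, 774 and 846 in tagged IP of experiment 1. In experiment 2 it measured 60.9, 61.3 and 65.4 CPM in untagged input, 61.2, 65.9 and 65.0 CPM in untagged IP, 57.0, 57.3 and 51.3 CPM in tagged input and 830.1, 687 and 573 CPM in tagged IP. Its tagged IP libraries were again apart from all others, although untagged beads also held more Tob1 than untagged input in experiment 1. The change was 4.02 (SE 0.15, edgeR adjusted p 2.94e-16) and 3.62 (SE 0.17, edgeR adjusted p 1.23e-14), which placed Tob1 in the top 0.415% of all genes tested in experiment 2. Btg1 measured 20.4, 21.8 and 22.3 CPM in untagged input, 21.0, 16.6 and 19.9 CPM in untagged IP, 20.2, 26.3 and 19.2 CPM in tagged input and 376, 284 and 299.6 CPM in tagged IP of experiment 1. The values of experiment 2 were 45.8, 40.9 and 41.5 CPM in untagged input, 38.5, 43.0 and 41.4 CPM in untagged IP, 37.7, 42.1 and 41.2 CPM in tagged input and 355, 263 and 216 CPM in tagged IP. Its tagged IP libraries did not overlap the other groups. The change was 4.04 (SE 0.18, edgeR adjusted p 4.38e-15) and 2.84 (SE 0.20, edgeR adjusted p 6.56e-12).

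**Figure D2:**
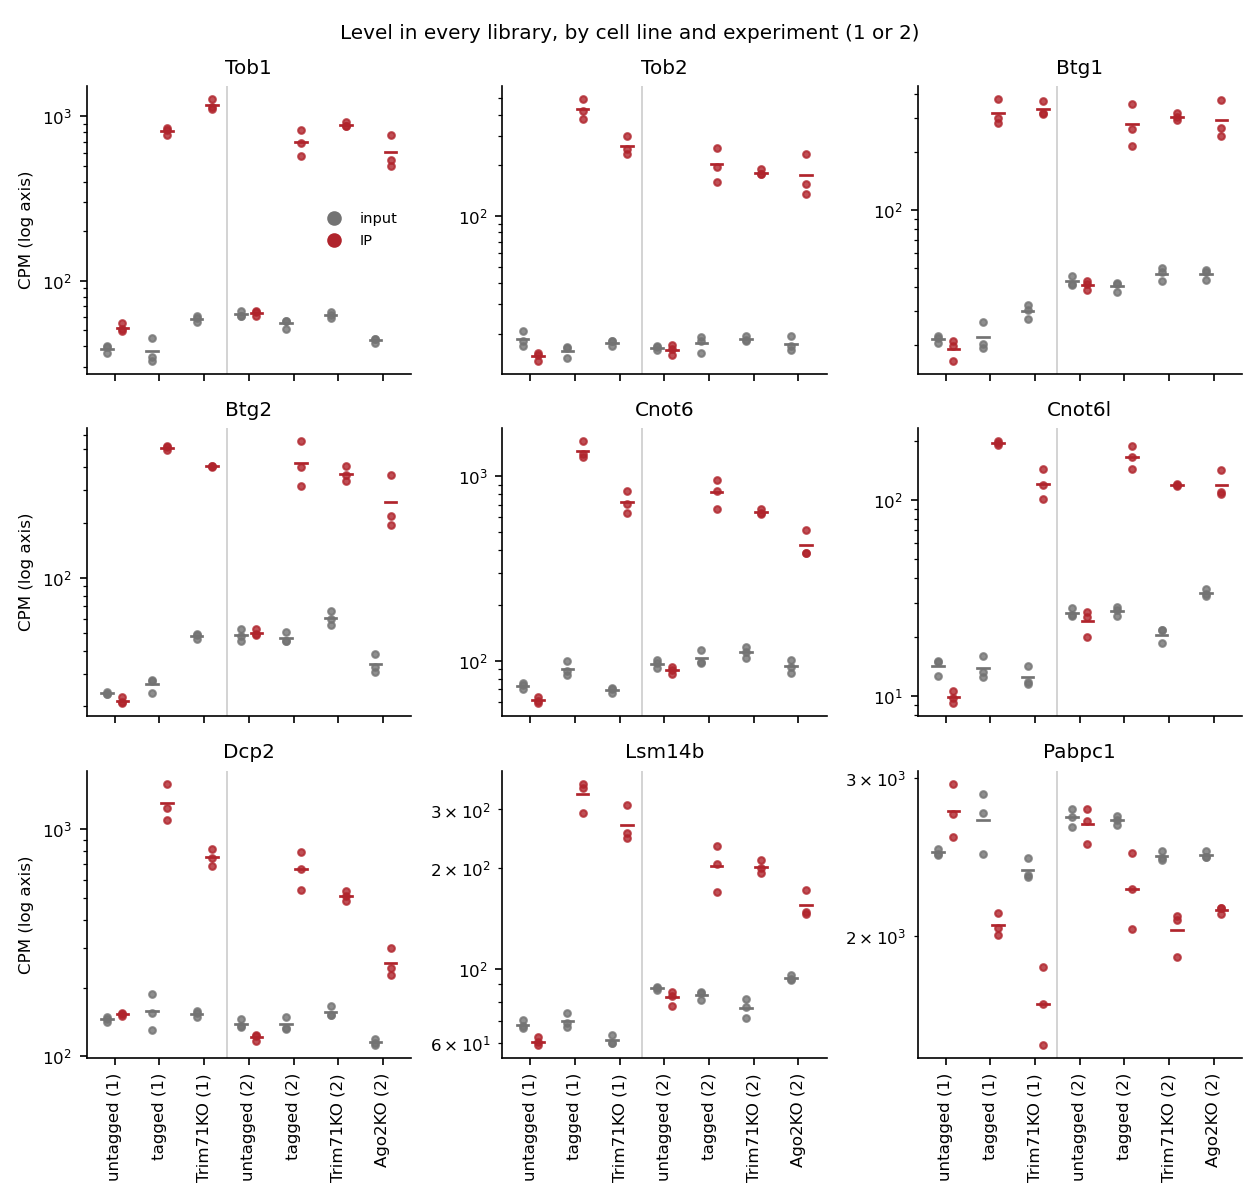
Level of 9 of the mRNAs in every library, as CPM on a log axis, for each cell line with the experiment number in brackets. Each point is 1 library, grey for input and red for IP, and the short line is the mean of 3. For 8 of the genes the tagged IP libraries lie above every untagged library of their experiment, and for Pabpc1 they lie below every untagged library.

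Among the catalytic subunits of CCR4-NOT, the mRNAs of one enzyme class stood apart in size. Cnot6 and its paralog Cnot6l encode the Ccr4-type deadenylases, and Cnot7 and Cnot8 the Caf1-type deadenylases that hold them in the complex. Cnot6 measured 70.7, 73.6 and 75.7 CPM in untagged input, 59.0, 63.5 and 60.4 in untagged IP, 100.0, 83.6 and 87.7 in tagged input and 1317, 1277 and 1549 in tagged IP of experiment 1. In experiment 2 it measured 91.4, 101 and 97.0 CPM in untagged input, 89.4, 93.0 and 85.3 CPM in untagged IP, 114, 97.8 and 98.2 CPM in tagged input and 958, 836 and 662 CPM in tagged IP. Tagged IP did not overlap the other groups, and the change was 4.20 (SE 0.15, edgeR adjusted p 1.35e-16) and 3.09 (SE 0.16, edgeR adjusted p 2.76e-14), or 18.4-fold and 8.54-fold. Cnot6l measured 15.1, 12.6 and 14.9 CPM in untagged input, 9.84, 9.23 and 10.7 CPM in untagged IP, 16.1, 12.6 and 13.4 CPM in tagged input and 194, 189 and 198 CPM in tagged IP of experiment 1. Those of experiment 2 were 25.6, 28.0 and 25.8 CPM in untagged input, 25.5, 26.8 and 19.9 CPM in untagged IP, 28.5, 25.5 and 27.6 CPM in tagged input and 189, 166 and 143 CPM in tagged IP. Its tagged IP libraries also did not overlap the others, with changes of 4.31 (SE 0.18, edgeR adjusted p 1.75e-15) and 2.74 (SE 0.16, edgeR adjusted p 2.42e-13). The Caf1-type mRNAs changed less. Cnot7 was called higher at 0.65 (SE 0.15) and 0.53 (SE 0.11). In experiment 1 untagged beads held it too, as given below, which the contrast subtracts. Cnot8 was called higher in experiment 2 at 0.30 (SE 0.08, edgeR adjusted p 0.00503), with 0.27 (SE 0.12, edgeR adjusted p 0.0653) in experiment 1. In experiment 1 it was called under 4 of 7 other settings. The experiment 2 call was lost with library size alone, where the change was 0.09.

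The 7 scaffold and regulatory subunits of CCR4-NOT went both ways. In each experiment 2 were called higher and 2 lower, and they were the same 4 genes. Cnot9, the subunit that binds tryptophan-containing motifs of Tnrc6 proteins, was higher at 1.31 (SE 0.13) in experiment 1 and 0.65 (SE 0.09) in experiment 2. Cnot4, a RING-type ubiquitin ligase associated with the complex, was higher at 0.92 (SE 0.14) and 0.52 (SE 0.10). Cnot3, of the NOT module, was lower at -0.61 (SE 0.13) and -0.27 (SE 0.09), and Cnot10, which pairs with Cnot11, at -0.83 (SE 0.12) and -0.29 (SE 0.09). The Cnot3 call of experiment 2 was lost without untagged input replicate 1 or untagged IP replicate 3, at -0.23 in each. The large scaffold Cnot1, at 0.28 (SE 0.19) and 0.17 (SE 0.12), was not called, nor were Cnot2 (0.12 and 0.08) and Cnot11 (-0.04 and 0.07). The sign of Cnot1, Cnot2 and Cnot11 turned in experiment 2 with library size alone.

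The decapping genes split between the enzyme with its cofactors and most of the activators. Dcp2 is the decapping enzyme, and Dcp1a and Dcp1b are alternative cofactors that activate it. Dcp2 measured 141, 146 and 149 CPM in untagged input, 150.2, 155 and 153 in untagged IP, 189, 130.1 and 155 in tagged input and 1099.9, 1239.5 and 1589 in tagged IP of experiment 1. In experiment 2 it measured 136, 146 and 135 CPM in untagged input, 123, 124 and 117 CPM in untagged IP, 149, 133 and 132 CPM in tagged input and 797, 665 and 539.8 CPM in tagged IP. The tagged IP libraries did not overlap the others. The change was 2.98 (SE 0.18, edgeR adjusted p 7.06e-13) and 2.47 (SE 0.14, edgeR adjusted p 2.85e-13). Dcp1b, at a lower level, changed by 3.02 (SE 0.21) and 2.25 (SE 0.22), and Dcp1a by 2.20 (SE 0.17) and 1.12 (SE 0.12), all called. Among the activators, Lsm14b was called higher at 2.41 (SE 0.14) and 1.37 (SE 0.12). Its paralog Lsm14a, which like it encodes an RNA-binding protein of the Scd6 family, was called lower in experiment 1 at -0.68 (SE 0.13) and in experiment 2 was at -0.23 (SE 0.09, edgeR adjusted p 0.051). The remaining activators moved less. In experiment 1, Ddx6, the helicase that links CCR4-NOT to decapping, was called higher at 0.57, and the scaffold Edc4 at -0.48, Eif4enif1 (4E-T) at -0.44 and Edc3 at -0.29 were called lower. Edc3 kept its call in 1 of 12 fits without 1 library, the one without tagged input replicate 2, and ran from -0.30 to -0.17 in the others. None of these 4 was called in experiment 2, where their changes were 0.20, -0.12, -0.07 and -0.07, the first of which turned sign with library size alone. Patl1, the bridge between the Lsm ring and Dcp2, was at -0.14 and 0.21 and was not called.

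Of the 7 mRNAs that encode the cytoplasmic Lsm1-7 ring, 1 was higher and 6 were lower in experiment 1. The ring binds the shortened 3′ end of deadenylated mRNAs, and Lsm1 is the subunit that sets it apart from the nuclear ring, where Lsm8 takes its place. Lsm1 measured 32.4, 37.6 and 32.8 CPM in tagged input and 129, 85.9 and 96.5 in tagged IP, against 29.7, 30.6 and 31.3 in untagged input and 28.2, 22.5 and 30.5 in untagged IP of experiment 1. The values of experiment 2 were 28.9, 32.0 and 33.1 CPM in tagged input, 68.0, 64.7 and 59.5 CPM in tagged IP, 33.1, 30.8 and 33.9 CPM in untagged input and 36.0, 32.4 and 39.1 CPM in untagged IP. Its tagged IP libraries were the highest and did not overlap the rest, with changes of 1.77 (SE 0.19, edgeR adjusted p 3.27e-08) and 0.89 (SE 0.14, edgeR adjusted p 8.51e-06). The subunits shared by both rings were Lsm7 at -1.22, Lsm5 at -1.11, Lsm4 at -1.09, Lsm6 at -0.51, Lsm3 at -0.47 and Lsm2 at -0.43 in experiment 1, all called lower. For Lsm5 the tagged IP libraries measured 11.0, 11.3 and 11.2 CPM and tagged input 24.1, 36.0 and 29.2 CPM, without overlap. Untagged IP measured 17.6, 16.6 and 14.8 CPM and untagged input 17.9, 20.2 and 22.1 CPM, which lay close without overlapping. For Lsm5, tagged input was also above untagged input by 0.57 (SE 0.12) on the log2 scale. In experiment 2 only Lsm5 among these 6 was called, at -0.49 (SE 0.12, edgeR adjusted p 0.00283), and the other 5 ran from -0.31 for Lsm4 to -0.12 for Lsm6. The experiment 1 calls of Lsm2, Lsm3 and Lsm6 were all lost without tagged input replicate 2 or without untagged IP replicate 1. Those of Lsm2 and Lsm6 were also lost without untagged input replicate 3, that of Lsm3 without replicate 2 and that of Lsm6 without replicate 1 of that group. In these fits Lsm2 ran from -0.35 to -0.26, Lsm3 from -0.41 to -0.28 and Lsm6 from -0.45 to -0.31.

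**Figure D3:**
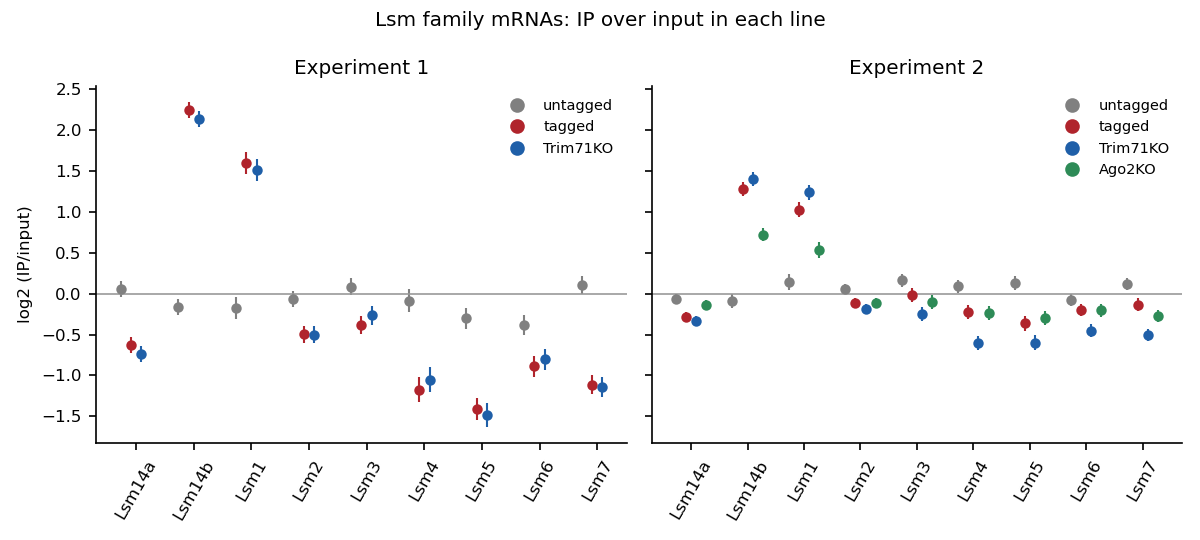
Log2 ratio of IP to input for the Lsm14 pair and the Lsm1-7 ring mRNAs in each cell line. Points are edgeR estimates from 3 IP and 3 input libraries, and bars are 1 SE. Lsm14b and Lsm1 lie above 0 in every line with tagged Tnrc6a, and the other 7 lie below 0 in those lines.

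The remaining groups showed small changes. Pan2, the catalytic subunit of PAN2-PAN3, was called lower at -0.67 (SE 0.14) and -0.38 (SE 0.13), although the experiment 2 call was lost without untagged input replicate 3, tagged input replicate 3 or tagged IP replicate 1 or 2 (-0.36 to -0.28). Its partner Pan3 was called higher in experiment 1 at 0.41 (SE 0.15), a call lost without tagged IP replicate 1 (0.37), and stood at 0.02 in experiment 2, a value that turned sign with library size alone. Pabpc1 measured 2739.9, 2882 and 2466 CPM in tagged input and 2007, 2123 and 2044 in tagged IP of experiment 1, with 2501, 2463 and 2472 in untagged input and 2577, 2957 and 2733 in untagged IP. Tagged IP was below all others. The change was -0.54 (SE 0.14). In experiment 2 the change was -0.23 (SE 0.08) and its call was lost without replicate 2 or 3 of either input group or replicate 1 or 2 of either IP group (-0.23 to -0.18). Pabpc4 was not called in either (-0.20 and -0.08). The exonuclease mRNA Xrn1 was called higher in experiment 1 at 0.57 (SE 0.19) and stood at 0.35 (SE 0.17) in experiment 2. For Xrn1 of experiment 1 the tagged IP libraries, at 46.2, 62.2 and 58.2 CPM, overlapped untagged IP at 44.6, 47.6 and 50.4 CPM, and tagged input was at 44.5, 27.5 and 36.9 CPM against 45.6, 45.3 and 47.5 CPM in untagged input.

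The bead control set untagged IP against untagged input. In experiment 1, 5 of the 37 mRNAs were called, 3 higher and 2 lower, where 12.1% of all genes were called (7.21% higher, 4.9% lower). These were Cnot7 at 0.59 (SE 0.11), Patl1 at 0.43 (SE 0.09) and Tob1 at 0.43 (SE 0.11), all higher on the beads, and Cnot6l at -0.52 (SE 0.14) and Lsm6 at -0.38 (SE 0.12), both lower. Under library size alone 32 were called, all lower, and the median of all genes moved from -0.03 to -0.42. The count was 3 without any 1 of the untagged inputs or without untagged IP replicate 2, where Lsm6 lost its call (also without untagged IP replicate 3, with values from -0.43 to -0.31). Cnot6l lost it without untagged input replicate 1 or untagged IP replicate 2 (-0.49 and -0.48), and Tob1 without untagged input replicate 2 or 3 or untagged IP replicate 1 (0.37 to 0.42). In experiment 2 edgeR called 0 of 37, where 0.728% of all genes were called, although 5 had an unadjusted p under 0.05. DESeq2 called 1 there. Tagged against untagged input differed by 4 calls in experiment 1, where 10.6% of all genes were called (5.69% higher, 4.87% lower). Cnot11 at 0.31 (SE 0.09), Lsm5 at 0.57 (SE 0.12) and Lsm6 at 0.38 (SE 0.12) were higher, and Cnot1 at -0.44 (SE 0.13) was lower. The tagged inputs 1 and 2 of experiment 1 differed more than any other pair of input replicates, with a chi-square per gene of 28.2 against 2.87 to 13.7. Without tagged input replicate 1 the count was 10, and without any 1 of the other 5 inputs it was 1, Lsm5. In those 5 fits Cnot11 ran from 0.28 to 0.37, Lsm6 from 0.25 to 0.45 and Cnot1 from -0.44 to -0.23. Under library size alone the split turned from 3 higher and 1 lower to 1 higher and 3 lower. In experiment 2 edgeR called 0 of 37 here, where 1.39% of all genes were called, with 2 at an unadjusted p under 0.05 and 0 called by DESeq2. In all comparisons of input RNA from cultures, a smaller share of cells with an mRNA and less of it per cell cannot be told apart.

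Trim71-dependent enrichment is the log2 IP to input ratio of Trim71KO-labelled cells less that of tagged cells. In experiment 1, 4 of the 37 mRNAs were called, all lower, where 3.74% of all genes were called and 3.47% called lower. The 4 were Dcp2, Btg2, Tob2 and Cnot6. The median of the 37 changes was -0.08, against -0.04 over all genes. In experiment 2, 1 was called, where 1.49% of all genes were called and 0.738% called lower, and it was Dcp2. The mRNA that encodes the bait, Tnrc6a, was itself called less enriched in the Trim71KO-labelled line of experiment 1, with a log2 change of -0.86 (edgeR adjusted p 0.0476). It was not called in experiment 2, at -0.40 (edgeR adjusted p 0.542). This ratio is of the mRNA and does not measure the amount of bait protein in any line. Its part in the values below was not tested.

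Dcp2 in experiment 1 measured 1099.9, 1239.5 and 1589 CPM in tagged IP and 818, 751 and 687 CPM in Trim71KO-labelled IP, with 189, 130.1 and 155 against 149, 158 and 156 CPM in the inputs. The IP libraries did not overlap and the inputs did. The change was -0.76 (SE 0.17, edgeR adjusted p 0.0102). In experiment 2 the IP libraries measured 797, 665 and 539.8 against 534, 509.7 and 480.4 CPM and the inputs 149, 133 and 132 against 152, 152 and 167 CPM. Here too the IP libraries did not overlap, the lowest tagged one lying close above the highest Trim71KO-labelled one, and the Trim71KO-labelled inputs were all higher than the tagged ones. The change was -0.58 (SE 0.14, edgeR adjusted p 0.0338). With a term for replicate number within each fraction, shared by all lines of experiment 2, the Dcp2 change was -0.57 (edgeR adjusted p 0.00344). Same-numbered tagged and Trim71KO-labelled libraries of experiment 2 deviated together. Replicate 3 of untagged IP deviated against replicate 3 of tagged and Trim71KO-labelled IP (correlations of -0.214 and -0.246), so a shared term does not describe all lines. Without that term the experiment 2 call was lost when any 1 input was left out, or tagged IP replicate 1 or 2, or Trim71KO-labelled IP replicate 2 or 3, with changes of -0.66 to -0.44. The experiment 1 call was lost without tagged input replicate 2 or 3, Trim71KO-labelled input replicate 2 or 3, or Trim71KO-labelled IP replicate 2, with changes of -0.68 to -0.58.

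Btg2 fell in enrichment by more than any other member in experiment 1, but its input and IP moved in opposite directions. Its IP libraries measured 518, 498 and 512 CPM in tagged and 400.4, 408 and 405 CPM in Trim71KO-labelled cells, and its inputs 27.4, 27.9 and 23.8 against 46.8, 48.8 and 49.6 CPM. Neither pair of groups overlapped. The enrichment change was -1.21 (SE 0.11, edgeR adjusted p 1.44e-07) at an input change of 0.88 (SE 0.08). In experiment 2 the IP libraries measured 553, 402 and 317 against 361, 335 and 408 CPM and the inputs 50.8, 45.4 and 45.7 against 60.2, 55.4 and 66.0 CPM. There the IP groups overlapped and the change of -0.56 (SE 0.24) was not called (edgeR adjusted p 0.254). Tob2 differed from this in experiment 1, with IP libraries at 420.2, 377 and 495 CPM in tagged and 298, 251 and 232 CPM in Trim71KO-labelled cells and inputs at 16.7, 14.3 and 16.5 against 18.0, 16.9 and 18.1 CPM. The IP groups did not overlap, and the inputs lay close to each other with the Trim71KO-labelled ones all slightly higher. The change was -0.88 (SE 0.16, edgeR adjusted p 0.00122), against -0.25 (SE 0.22) in experiment 2, where it was not called. Tob1 was higher in every Trim71KO-labelled library of both fractions, with IP libraries at 823, 774 and 846 CPM in tagged and 1275, 1144 and 1109 CPM in Trim71KO-labelled cells of experiment 1, without overlap, and its ratio of IP to input was not called in either experiment, at -0.13 and 0.19. Nor was that of Btg1, at -0.39 and -0.08.

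Cnot6 measured 1317, 1277 and 1549 CPM in tagged IP and 834, 710.2 and 632 CPM in Trim71KO-labelled IP of experiment 1, with inputs at 100.0, 83.6 and 87.7 against 67.0, 70.1 and 71.5 CPM. Neither the IP nor the input groups overlapped, and both were lower in the Trim71KO-labelled line. The change in enrichment was -0.55 (SE 0.15, edgeR adjusted p 0.0328). This call was lost under 5 of 7 other settings. It was also lost without tagged input replicate 2 or 3, any Trim71KO-labelled input, tagged IP replicate 3, or Trim71KO-labelled IP replicate 2 or 3, where the change ran from -0.50 to -0.37. In experiment 2 the IP libraries measured 958, 836 and 662 against 630.0, 664 and 625 CPM, which overlapped. The change of -0.46 (SE 0.15) was not called without the replicate number term (edgeR adjusted p 0.128) or with it (0.0502). Cnot6l was not called, at -0.53 (SE 0.17, edgeR adjusted p 0.0971) and -0.08 (SE 0.15). With the replicate number term in the fit, Cnot7 was called higher in experiment 2 at 0.36 (edgeR adjusted p 0.0448), against 0.36 (adjusted p 0.0963) without it, which made 2 calls in place of 1. The number called in experiment 1 was 2 without any 1 of the 5 libraries named for Dcp2, and in experiment 2 it was 2 without tagged IP replicate 1 or 3 and 0 or 1 without any other library. Library size alone gave 1 called higher and 1 lower in experiment 2. With input and IP of 1 number as the pair, 4 were called in experiment 2, Cnot7 higher and Dcp2, Cnot6 (-0.45, edgeR adjusted p 0.0243) and Lsm4 (-0.38, edgeR adjusted p 0.0478) lower. The same-number correlations of input and IP were all over 0.1 in the tagged line but ran from 0.0793 to 0.271 in the Trim71KO-labelled line. No Lsm ring, PAN2-PAN3, Xrn1 or poly(A)-binding protein mRNA was called in either experiment by edgeR with TMM scaling, all libraries and no replicate term. Their changes ran from -0.38 (Lsm4, experiment 2) to 0.29 (Xrn1, experiment 2). DESeq2 called Lsm4 and Lsm7 lower beside Dcp2 in experiment 2.

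Ago2-dependent enrichment, measured in experiment 2 alone, is the log2 IP to input ratio of Ago2KO cells less that of tagged cells. It uses the same tagged libraries as the Trim71-dependent values of experiment 2, so the 2 sets of values share their reference. Of the 37 mRNAs 6 were called, all lower, where 4.16% of all genes were called and 3.77% called lower. They were Dcp2, Cnot6, Cnot6l, Lsm14b, Lsm1 and Cnot9. The tagged libraries of experiment 2 also enter the tag-specific values, so calls in these comparisons are not independent. The median of the 37 was -0.01, against 0.0026 over all genes, a median that moved to 0.11 with library size alone.

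Dcp2 changed most. Its IP libraries measured 797, 665 and 539.8 CPM in tagged and 299.6, 244 and 229 CPM in Ago2KO cells, and its inputs 149, 133 and 132 against 119, 114 and 112 CPM. In both fractions every Ago2KO library was lower. The change was -1.11 (SE 0.14, edgeR adjusted p 1.04e-05), or 0.464 times the tagged ratio, and it held under each setting and each omission of a library tried. Cnot6 measured 958, 836 and 662 CPM in tagged IP and 511, 383 and 385 in Ago2KO IP, with inputs at 114, 97.8 and 98.2 against 101, 92.3 and 86.2 CPM. Its IP groups did not overlap while its inputs did, and the change was -0.79 (SE 0.15, edgeR adjusted p 0.00162). Cnot6l measured 189, 166 and 143 against 142, 109 and 107 CPM in the IPs, where the highest Ago2KO library nearly reached the lowest tagged one, and 28.5, 25.5 and 27.6 against 33.1, 32.5 and 35.1 CPM in the inputs, where every Ago2KO library was higher. The change was -0.77 (SE 0.15, edgeR adjusted p 0.00167), and the input change alone, 0.30 (SE 0.11), was not called.

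Lsm14b measured 234, 207 and 170.1 CPM in tagged IP and 172, 148 and 146 CPM in Ago2KO IP, with inputs at 80.8, 85.3 and 84.9 against 92.7, 95.9 and 93.5 CPM. The IP groups overlapped by 1 library each, the Ago2KO inputs were all higher, and the change was -0.56 (SE 0.12, edgeR adjusted p 0.00367). Lsm1 measured 68.0, 64.7 and 59.5 against 52.2, 44.1 and 45.8 CPM in the IPs, which did not overlap, and 28.9, 32.0 and 33.1 against 33.9, 36.4 and 27.9 CPM in the inputs, which did. Its change was -0.50 (SE 0.14, edgeR adjusted p 0.0309). Cnot9 measured 277, 255 and 235 against 216, 211 and 195 CPM in the IPs and 177, 174 and 162 against 172, 178 and 169 CPM in the inputs, with a change of -0.32 (SE 0.09, edgeR adjusted p 0.0307) and separate IP groups. The calls of Lsm1 and Cnot9 were each lost with library size alone and in the fit of only the groups compared. That of Lsm1 was also lost without replicate 1 or 2 of either input group or of tagged IP, or replicate 2 or 3 of Ago2KO IP (-0.51 to -0.42), and that of Cnot9 without tagged input replicate 2 or 3, Ago2KO input replicate 2, tagged IP replicate 1 or 2, or Ago2KO IP replicate 3 (-0.33 to -0.26). The 4 TOB/BTG mRNAs were not called: Tob1 was at 0.14 (SE 0.16), Tob2 at -0.21 (SE 0.22), Btg1 at -0.13 (SE 0.19) and Btg2 at -0.25 (SE 0.24). Among the 31 mRNAs not called the change ran from -0.37 for Dcp1b to 0.22 for Cnot1.

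**Figure D4:**
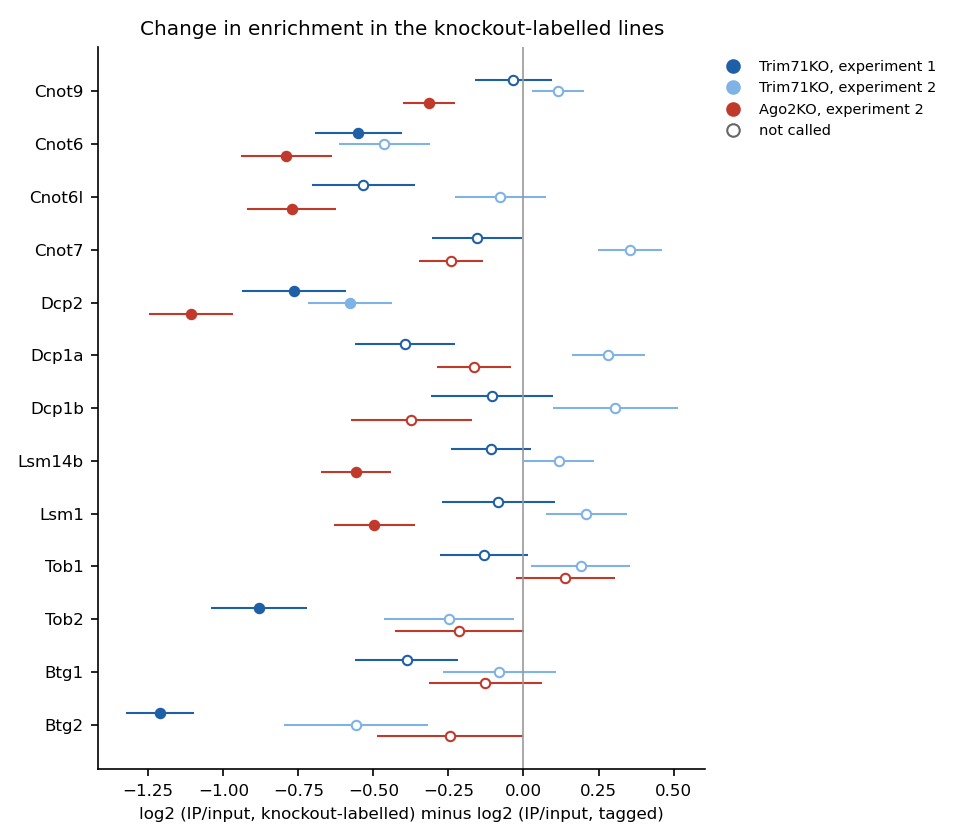
Change in the log2 IP to input ratio of the Trim71KO-labelled and Ago2KO lines relative to the tagged line, for the mRNAs called in any comparison of these lines and for all 4 TOB/BTG mRNAs. Points are edgeR estimates, bars are 1 SE, and open points were not called. Dcp2 lies at -0.76, -0.58 and -1.11.

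The Trim71KO-labelled and Ago2KO lines of experiment 2 were also set against each other directly. The tagged libraries do not enter this contrast, but they share its fit and so its estimate of the spread. A fit of only the groups compared also called 8, all higher. Of the 37 mRNAs 8 were called, all with a higher IP to input ratio in the Trim71KO-labelled line, where 11.8% of all genes were called and 8.94% called higher. Lsm1 had 76.2, 75.8 and 72.3 CPM in Trim71KO-labelled IP against 52.2, 44.1 and 45.8 CPM in Ago2KO IP, without overlap, at overlapping inputs of 36.2, 30.0 and 28.7 against 33.9, 36.4 and 27.9 CPM, a difference of 0.71 (SE 0.14, edgeR adjusted p 0.000647). Cnot6l differed by 0.70 (SE 0.15, edgeR adjusted p 0.00232) at overlapping IP levels, 121, 117 and 119 against 142, 109 and 107 CPM, and separate inputs, 21.6, 18.6 and 21.7 against 33.1, 32.5 and 35.1 CPM. For this gene the inputs were apart and the IPs were not. Lsm14b, at 212, 194 and 201 against 172, 148 and 146 CPM in the IPs and 71.4, 81.4 and 76.8 against 92.7, 95.9 and 93.5 CPM in the inputs, was separate in both fractions and differed by 0.68 (SE 0.12, edgeR adjusted p 0.000194). Dcp2, at 534, 509.7 and 480.4 against 299.6, 244 and 229 CPM in the IPs and 152, 152 and 167 against 119, 114 and 112 CPM in the inputs, was higher in the Trim71KO-labelled line in every library of both fractions and differed by 0.53 (SE 0.14, edgeR adjusted p 0.0124).

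The other 4 of the 8 differed in the same direction. Cnot7, at 140.4, 145 and 133 against 114, 104 and 96.7 CPM in the IPs and 76.1, 72.5 and 76.8 against 88.2, 87.6 and 80.8 CPM in the inputs, differed by 0.60 (SE 0.11, edgeR adjusted p 0.000302), its IPs higher and its inputs lower in the Trim71KO-labelled line. Dcp1b measured 27.5, 26.3 and 37.1 against 29.7, 23.4 and 26.4 CPM in the IPs, which overlapped, and 5.01, 5.17 and 6.91 against 8.19, 7.92 and 7.79 CPM in the inputs, which did not. It differed by 0.68 (SE 0.21, edgeR adjusted p 0.0301). Dcp1a and Cnot9 differed by 0.45 (SE 0.12) and 0.43 (SE 0.09). The calls of Dcp1a, Dcp1b and Dcp2 were all lost without Ago2KO IP replicate 2 or 3. That of Dcp1a was also lost without Trim71KO-labelled IP replicate 1, and that of Dcp1b without Trim71KO-labelled input replicate 1 or 2, any Ago2KO input or Trim71KO-labelled IP replicate 3. In these fits Dcp2 was at 0.45, Dcp1a at 0.36 to 0.39 and Dcp1b at 0.46 to 0.69. The number called was 5 without either of those 2 Ago2KO libraries. With library size alone Lsm4, at -0.36 (edgeR adjusted p 0.051) here, was called lower beside the 8. RLE factors, DESeq2 and the replicate number block within each fraction also gave 8 called higher and 1 lower. With input and IP of 1 number as a block, 9 were called higher and 1 lower. None of the TOB/BTG mRNAs was called, at 0.05 for Tob1, -0.03 for Tob2, 0.05 for Btg1 and -0.31 for Btg2.

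In input RNA, the level of 15 of the 37 mRNAs differed between the Trim71KO-labelled and tagged lines of experiment 1, 6 higher and 9 lower, where 34% of all genes were called (16.5% higher, 17.4% lower). Of the 6 higher ones 3 were TOB/BTG mRNAs. Btg2 was at 26.3 ± 2.23 CPM (SD, n = 3) in tagged and 48.4 ± 1.46 CPM in Trim71KO-labelled input, a change of 0.88 (SE 0.08, edgeR adjusted p 4.23e-08). Tob1 was at 37.3 ± 6.63 and 59.0 ± 2.50 CPM, a change of 0.66 (SE 0.11), and Btg1 at 21.9 ± 3.82 and 29.9 ± 2.52 CPM, a change of 0.45 (SE 0.13), both called, while Tob2 was not (0.16). The groups did not overlap for these 3. Cnot10 (0.33), Edc4 (0.37) and Patl1 (0.25) were also higher. Lower were 6 of the 7 Lsm ring mRNAs, from Lsm5 at -0.79 (SE 0.12) and Lsm3 at -0.68 (SE 0.11) to Lsm2 at -0.27 (SE 0.10), and Cnot7 (-0.55), Cnot6 (-0.38) and Cnot9 (-0.34). For the 7 Lsm ring mRNAs the tagged input, the reference here, was itself above untagged input, by 0.09 to 0.57 (median 0.20). Patl1 (0.17 to 0.26) and Lsm2 (-0.32 to -0.14) lost their calls without any 1 input other than tagged replicate 1. Without tagged input replicate 2, Lsm1, Lsm6 and Lsm7 lost theirs, at -0.43 to -0.36, -0.32 and -0.33 to -0.20, and Lsm1 and Lsm7 lost theirs also without Trim71KO-labelled replicate 2, Lsm7 also without replicate 3. Btg1 lost its call without tagged input replicate 1 or 3 or Trim71KO-labelled replicate 3 (0.34 to 0.38). Library size alone gave 8 called higher and 7 lower. Primitive endoderm markers were lower in the same inputs (6 of 6 called lower). Called higher there were both fibroblast markers measured, 1 of 2 trophoblast markers and 3 of 8 embryonic stem cell markers. The part of these cell type markers in the values was not tested.

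In experiment 2, 7 of the 37 were called in Trim71KO-labelled input, 3 higher and 4 lower, where 27.2% of all genes were called (13.5% higher, 13.7% lower). Cnot10 was called higher and Cnot9 called lower in both experiments, and Lsm2 was called in opposite directions. Of the 18553 genes tested in both experiments 6.33% were called higher in both, 4.53% lower in both and 1.82% in opposite directions. The sign was the same for 22 of the 37 and for 60.2% of all these genes. Cnot10 measured 87.8, 91.0 and 88.9 CPM in tagged and 133, 138 and 138 CPM in Trim71KO-labelled input of experiment 2, without overlap, a change of 0.61 (SE 0.07, edgeR adjusted p 6.98e-08). In experiment 1 it measured 111, 99.5 and 109 against 137, 137 and 127 CPM, also without overlap, a change of 0.33 (SE 0.08, edgeR adjusted p 0.0031). Cnot8 at 0.25 and Lsm2 at 0.28 were the other higher ones, and Cnot6l at -0.40, Pan2 at -0.38, Pan3 at -0.23 and Cnot9 at -0.23 were lower. The 7 Lsm ring mRNAs ran from -0.05 to 0.28, with a median of 0.15, against a median of -0.44 in experiment 1. The Cnot6l call was lost without tagged input replicate 1 or Trim71KO-labelled replicate 2 (-0.36 to -0.33), and the Pan3 call without these or tagged replicate 3 (-0.22 to -0.15). Library size alone gave 3 called higher and 7 lower, and without Trim71KO-labelled input replicate 3 the number called was 11. With the replicate number term shared by all lines 10 were called, the added 3 being Edc4 at 0.19, Lsm6 at 0.20 and Lsm7 at 0.19. The TOB/BTG mRNAs were not called in experiment 2, with Btg2 at 0.36, Btg1 at 0.22, Tob1 at 0.16 and Tob2 at 0.08. Primitive endoderm markers were lower in these inputs as well (5 of 5), while 1 of 2 fibroblast, 2 of 2 trophoblast and 5 of 8 embryonic stem cell markers were called higher, and their part was not tested. In Ago2KO input edgeR called 0 of the 37, where 6.96% of all genes were called. An unadjusted p under 0.05 was reached by 6, and DESeq2 called 0. Of the markers in Ago2KO input, 4 of 8 embryonic stem cell markers were called higher and 1 lower. Called lower were 3 of 5 primitive endoderm and 1 of 2 trophoblast markers, and 0 of 2 fibroblast markers were called.

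Of the 3 TOB/BTG mRNAs called higher in Trim71KO-labelled input of experiment 1, Btg1 and Btg2 are taken here. Neither was called in that input of experiment 2. The 250 bases before their annotated starts are shown, from RefSeq on GRCm38.p6, 5′ to 3′ on the strand of the gene. The table held such a window for 30 of the 37 genes, and that of Tob1 lies within the annotated span of the gene and is not shown. Capitals mark matches on either strand to TATAAA (a core promoter motif), CCAAT (bound by NF-Y), GGGCGG (the GC box), TGACGTCA (the cAMP response element) and GGAAGTG (an ETS motif). Btg1 lies on chromosome 10 at 96617001 to 96622813 and its window is chr10:96616751-96617000 on the plus strand. Btg2 lies on chromosome 1 at 134074865 to 134079155 and its window is chr1:134079156-134079405 on the minus strand.
Btg1: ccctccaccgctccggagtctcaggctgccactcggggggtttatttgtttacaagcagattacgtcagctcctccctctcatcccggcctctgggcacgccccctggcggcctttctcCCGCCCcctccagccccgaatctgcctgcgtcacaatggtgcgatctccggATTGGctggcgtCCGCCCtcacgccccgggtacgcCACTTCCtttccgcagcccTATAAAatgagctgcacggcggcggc
Btg2: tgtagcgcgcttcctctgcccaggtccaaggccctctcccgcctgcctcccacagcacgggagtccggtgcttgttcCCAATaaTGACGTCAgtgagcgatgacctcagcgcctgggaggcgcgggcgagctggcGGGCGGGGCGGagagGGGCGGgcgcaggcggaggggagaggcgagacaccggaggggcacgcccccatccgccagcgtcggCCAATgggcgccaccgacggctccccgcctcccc
Of 32851 windows of this length in the table, 12.4% held TATAAA, and a share of 33.8% held CCAAT. The GC box was found in 32.7%, the cAMP response element in 1.55% and the ETS motif in 8.55%. The Btg1 window had 1 core promoter motif, 1 NF-Y motif, 2 GC boxes and 1 ETS motif, and the Btg2 window 2 NF-Y motifs, 3 GC boxes, of which 2 overlap, and 1 cAMP response element. G and C made up 65.2% of the Btg1 window and 73.2% of the Btg2 window.

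The same comparisons were read in 56 other mRNA decay genes found of 57 listed, among them the exosome, nonsense-mediated decay factors, nucleotidyltransferases and further deadenylases. With the tag, 16 were called higher and 21 lower in experiment 1, and 11 higher and 3 lower in experiment 2, or 66.1% and 25.0% of the list. Of all genes tested 56.9% were called in experiment 1 (28.1% higher, 28.8% lower) and 27.7% in experiment 2 (18.9% higher, 8.77% lower). Gigyf1, a partner of the cap-binding repressor Eif4e2, changed by 4.07 and 3.24, the poly(A) polymerase Tent4a by 3.15 and 2.12, and Angel1, of the Ccr4-like nuclease family, by 3.17 and 1.68. Lowest in experiment 1 were the 3′ exonuclease Dis3l2 at -1.65, the exosome subunit Exosc8 at -1.41 and the nuclear exonuclease Xrn2 at -1.34. In experiment 2 Lsm8, the nuclear counterpart of Lsm1, was lowest at -0.45, followed by the nonsense-mediated decay factor Upf3a at -0.31 and Exosc8 at -0.28. For Trim71-dependent enrichment edgeR called 0 of the 56 in each experiment, with 8 and 12 at an unadjusted p under 0.05. Of all genes 3.74% and 1.49% were called there. For Ago2-dependent enrichment 5 were called, all lower, or 8.93% of the list, where 4.16% of all genes were called and 3.77% called lower. They were led by Exosc1 at -0.58, the cytoplasmic poly(A) polymerase Tent2 at -0.52 and Angel1 at -0.47. Between the Trim71KO-labelled and Ago2KO lines 9 were called higher and 4 lower, or 23.2% of the list, where 11.8% of all genes were called and 8.94% called higher.

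Gene length and input level are given beside the tag-specific change as a description. Across the 37 genes, which share libraries and are not replicates, Spearman's rho between the deposited gene length and the change was 0.22 in experiment 1 and 0.13 in experiment 2. Over all genes tested it was 0.26 and 0.20. Between the tagged input level per kilobase and the change it was -0.55 and -0.35 over the 37, where the input level enters both quantities. Members called higher had a median length of 6610 bases in experiment 1 and 5821 in experiment 2, and members called lower 5650.5 and 6719 bases.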

How the data were processed

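RNA-seq of input and anti-HA IP RNA was analysed in 42 libraries, 14 groups of 3, from 2 experiments. The authors deposited raw counts per gene, RPKM values and a gene length for each experiment in 1 table, per the file headers. The submitters' processing notes name bcl2fastq 2.20, STAR 2.7.3a and the builds GRCm38 and mm10. The tool and strand setting of the counting are not given in the sources used here. The RPKM values the authors deposited were not tested, and their gene length in bases was used for CPM per kilobase.

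Counts of each experiment were fitted in 1 model of all its groups with edgeR 4.0.16 (R 4.3.3, limma 3.58.1), using TMM scaling, the filterByExpr filter at a minimum count of 10 and the quasi-likelihood F test. Interaction contrasts gave the enrichments, p-values were adjusted by Benjamini-Hochberg over all genes, and an adjusted p under 0.05 was a call. Each SE was derived from the F statistic as |log2 change| / sqrt(F). CPM were computed on TMM-adjusted library sizes, and their SD is over 3 libraries. The number of libraries and the spread between them set the precision.

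Alternatives were RLE factors, library size alone, no count filter, DESeq2 1.42.0, only the groups compared, replicate blocks and leaving out each library. Every same-number correlation of deviations was over 0.1 in 3 of 25 pairs of groups, all of experiment 2. These were tagged and Trim71KO-labelled IP (0.183 to 0.333), the same inputs (0.206 to 0.299), and tagged input and IP (0.104 to 0.183). Different-number correlations of the same 3 pairs of groups were lower, at -0.341 to -0.00911, -0.255 to 0.00759 and -0.120 to 0.00813. In experiment 1 they reached 0.42 between tagged and Trim71KO-labelled IP, so these values alone do not establish that a number marks a pair. No label says what a number marks. The replicate block within each fraction was shared by all lines of an experiment. No 2 replicate libraries agreed within sampling noise (chi-square per gene of 2.87 to 64.1 over 42 pairs). On simulated counts with 200 genes changed by 1 on the log2 scale, the fit recovered 85% in experiment 1 and 85.5% in experiment 2 for tag-specific enrichment, and of its calls 3.41% and 7.07% were false. The changed genes were raised or lowered in equal number, above a cut on mean count, and all others kept the same mean in every group. In the data 56.9% and 27.7% of genes were called in that contrast, so the simulated rates do not describe it. The 37 genes, the marker lists and the list of other decay genes were chosen with earlier results of these data known. Values in every library were given for up to 6 called members a comparison, those called in both experiments first and then by size, and from the other decay genes up to 3 called genes each way were named by size. Further members' library values were chosen after their values were seen.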

Additional observations from a re-analysis of the deposited data

Results flagged for a closer look

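The ratio of IP to input differed between the Trim71KO-labelled and Ago2KO lines of experiment 2 for 8 of the 37 mRNAs, by the interaction contrast of edgeR over all 19778 genes. The ratio was higher in the Trim71KO-labelled line for each. The Lsm ring subunit Lsm1 differed by 0.71 and the deadenylase Cnot6l by 0.70 on the log2 scale. Lsm14b and Dcp1b each differed by 0.68, and Cnot7, a Caf1-type deadenylase, by 0.60. The decapping enzyme Dcp2 differed by 0.53, its cofactor Dcp1a by 0.45 and the Tnrc6-binding subunit Cnot9 by 0.43. These are 21.6% of the 37, where 8.94% of all genes tested were called higher in this contrast and 11.8% either way. Of the 56 other decay genes 23.2% were called either way (9 higher, 4 lower). The median SE here was 0.109 for the 37 and 0.182 over all genes, so these shares are not at equal precision.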

How the results depend on the processing

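Of 101 called member results, 68 kept their call under every alternative tried and 0 turned sign, while 93 of 380 results without a call gained one under some alternative, 11 of them with the other sign. Counts of members called that moved by over 1.5 times were as follows. With library size alone, the bead control gave 32 (experiment 1) and 3 (experiment 2), Trim71-dependent enrichment of experiment 2 gave 2, and Ago2KO input 3. With DESeq2, tagged against untagged input of experiment 1 gave 8, Trim71-dependent enrichment of experiment 2 gave 3 and the bead control of experiment 2 gave 1. In fits of only the groups compared, the bead control of experiment 1 gave 15, tagged against untagged input 1 in each experiment, Trim71-dependent enrichment of experiment 2 gave 0, Trim71KO-labelled input of experiment 2 gave 12 and Ago2KO input 7. With the replicate number as a block within each fraction, the bead control of experiment 1 gave 2, Trim71-dependent enrichment of experiment 2 gave 2 and Ago2KO input 2; with input and IP of 1 number as a block, Trim71-dependent enrichment of experiment 2 gave 4 and the bead control of experiment 2 gave 2. The replicate block moved no other count by over 1.5 times. Leaving out 1 library at a time, tag-specific calls ran from 27 to 31 and from 18 to 22, Trim71-dependent calls from 2 to 5 and from 0 to 2 (experiments 1 and 2), Ago2-dependent calls from 4 to 7, and Trim71KO-labelled against Ago2KO calls from 5 to 10. Bead control calls ran from 3 to 4 and from 0 to 1 (1 without untagged IP replicate 2), tagged against untagged input calls from 1 to 10 and stayed at 0, Trim71KO-labelled input calls from 10 to 18 and from 5 to 11, and Ago2KO input calls stayed at 0. For calls lost with a library left out, the fit has fewer libraries; for the other settings the cause was not tested. Limits are 3 libraries a group, a Trim71 label that the RNA level does not check, and counting whose strand setting is not given.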
